A study of Homo sapiens with 6 samples.

Results

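The 10 genes described here are KIAA1199 (now named CEMIP) and 9 genes of hyaluronan metabolism, listed by their Ensembl gene identifiers. No measured value entered that rule, but the genes were chosen with earlier results of these data known. Beside KIAA1199 they are its membrane-bound paralog TMEM2 (now CEMIP2), the hyaluronan synthases HAS1, HAS2 and HAS3, the hyaluronidase genes HYAL1, HYAL2 and HYAL3, and the receptor genes CD44 and HMMR. All 10 were present among the 26445 probe sets, each of which stands for a gene. Expression was measured on 6 Affymetrix exon arrays, 3 from uninduced cells and 3 from cells given doxycycline, in 3 independent experiments that each supplied an array of both kinds. The cells are SW480, a human colorectal cancer line, and in both groups they carry a vector for the tetracycline repressor (pcDNA6TR), selected with blasticidin S, and a KIAA1199 construct (pT-Rex-DEST30-KIAA1199), selected with G418. The doxycycline group received 50 ng/ml for 48 h by the sample labels, and the titles describe the other group only as uninduced. The cells come from a single clone, and repressor-bearing cells without the construct were not analysed here, so an action of doxycycline itself and of the induced protein cannot be told apart. The treatment label names doxycycline for all 6 arrays, so the groups were taken from the sample titles. The epithelial identity of the cells was not checked against marker genes, because their Ensembl identifiers, although present among the probe sets, could not be paired with symbols in the reference table.

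Hyaluronan is a long, unbranched sugar polymer of the extracellular matrix. Synthases in the plasma membrane assemble it and push it out of the cell, receptors such as CD44 bind it, and hyaluronidases cut it at the cell surface and in lysosomes. KIAA1199 is a secreted and membrane-associated protein that is known to bind hyaluronan and to be needed for its breakdown in skin fibroblasts, and it is highly expressed in colorectal tumors. The comparison asks which of the genes that make, cut or bind hyaluronan changed at the level of RNA once KIAA1199 was induced.

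Of the 10 genes, KIAA1199 rose 3.56-fold with doxycycline and HYAL2, which encodes a cell-surface hyaluronidase held by a lipid anchor, was 1.22-fold higher. These were the only genes of the group past the study's limits, an unadjusted p under 0.025 together with a fold change of at least 1.2, in limma with the experiment as a block. The same limits called 2.90% of all probe sets as raised and 2.94% as lowered, and 0 of the 10 genes were lowered past them. No probe set had a Benjamini-Hochberg adjusted p under 0.05 (0 of 26445 in limma, which is 0%, and 0 with the methods' t-test). At an unadjusted p under 0.05 limma called 12.3% of all probe sets and the methods' t-test 10.4%, and the 10 genes gave 2 such calls in limma, KIAA1199 and HYAL2 again, and 3 in the methods' t-test, which added TMEM2. The 2 genes are therefore described by their levels in each experiment, and neither passed a test corrected for the number of probe sets.

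**Figure D1:**
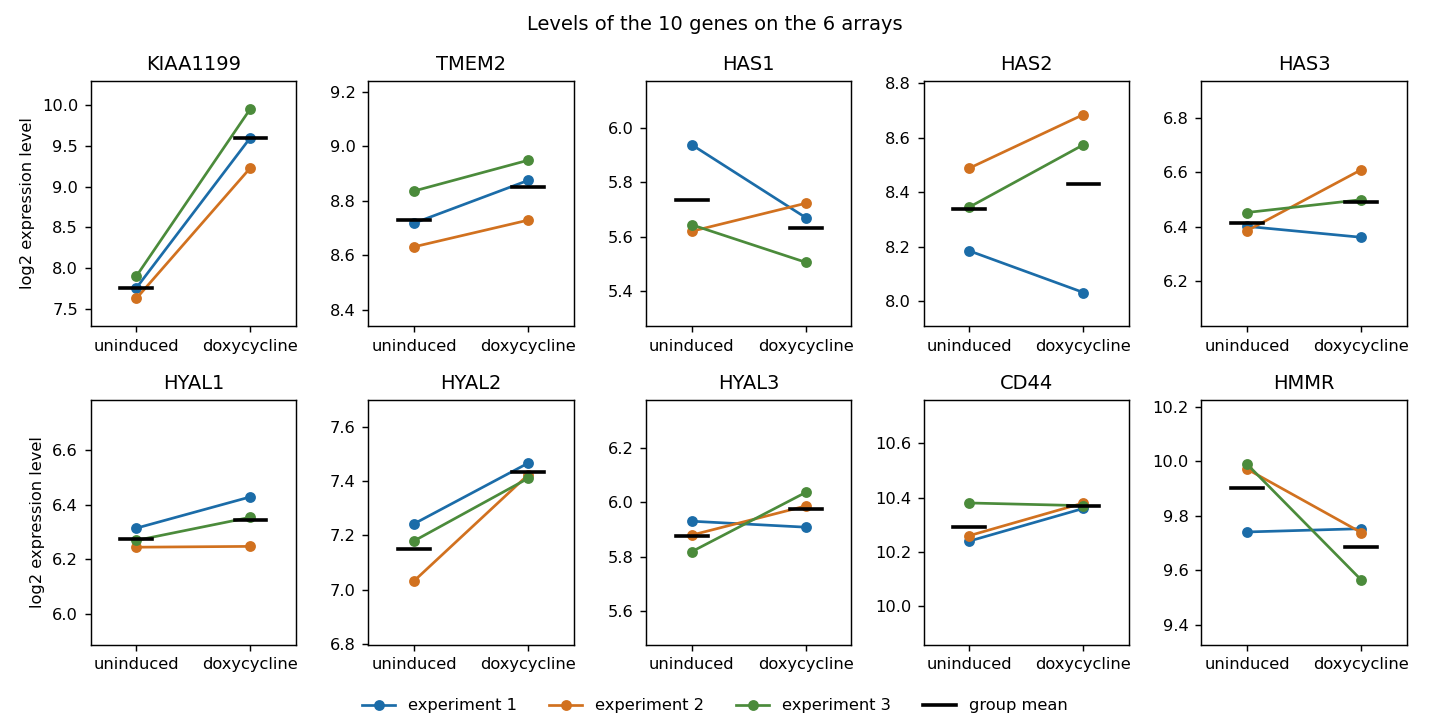
Log2 expression level (y axis) of each of the 10 genes in uninduced and doxycycline-treated cells (x axis). Points are single arrays, lines join the arrays of an experiment, black bars are group means, and the y axis spans a wider range for KIAA1199 than for the other genes. The groups are separate for KIAA1199 and HYAL2 and overlap for the other 8 genes.

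KIAA1199 (ENSG00000103888_at) is the gene carried by the construct, so its level also checks the sample labels. Its log2 level was 7.76, 7.63 and 7.90 in the uninduced arrays of experiments 1, 2 and 3, and 9.60, 9.23 and 9.96 in the doxycycline arrays. Every doxycycline array lay above every uninduced array, so no array stood on the wrong side of its title. The log2 level went from 7.77 ± 0.14 (SD, n = 3) to 9.60 ± 0.36 (SD, n = 3). Its uninduced mean was above that of 83.4% of all probe sets, so the rise did not start from a dim signal. The log2 fold change was 1.83, with a 95% interval from 1.53 to 2.14, which corresponds to a fold change between 2.88 and 4.40. The experiment with the highest uninduced level, the third, also had the highest induced level and the largest rise. The adjusted p from limma was 0.35, and it lay between 0.16 and 0.62 in the 17 other settings run, all of which placed KIAA1199 past the study's limits. The exact two-sided sign-flip permutation test of the 3 differences gave p = 0.25, the smallest that 3 pairs allow. The deposited values give 1 level per gene, so transcripts from the construct and from the cells' own KIAA1199 gene cannot be told apart, in the induced as in the uninduced cells. In RefSeq the gene also shares part of its span with the protein-coding gene MESD, the microRNA gene MIR549A and a long noncoding RNA gene, and whether probes read these was not tested.

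TMEM2 (ENSG00000135048_at) encodes a transmembrane protein related in sequence to KIAA1199. Its log2 level was 8.72, 8.63 and 8.84 without doxycycline and 8.88, 8.73 and 8.95 with it, in experiments 1, 2 and 3. It was higher with doxycycline in each experiment, by 0.16, 0.10 and 0.11. Between experiments its level within a group ranged over more than these differences, and the groups overlapped. The log2 fold change was 0.12, a fold change of 1.09, with a 95% interval from -0.05 to 0.29 (adjusted p = 0.50 from limma). The 3 differences were close to each other, with an SD of 0.031 against a median SD of 0.14 over all probe sets. With the methods' t-test, which takes only this SD as its error, the unadjusted p of TMEM2 was 0.0202 and the adjusted p 0.45, whereas limma draws the error towards that of the other probe sets and gave an unadjusted p of 0.115. The fold change stayed under 1.2 in all 17 other settings, with log2 values between 0.07 and 0.18. The rise of KIAA1199 exceeded the difference of TMEM2 by 1.71 on average, with a 95% interval from 1.17 to 2.25, and was the larger in all 3 experiments.

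The promoters of 4 genes are shown because these genes, KIAA1199, TMEM2, HYAL1 and HYAL2, were higher with doxycycline in all 3 experiments. Each is the 250 bases before the start of the gene in RefSeq (GRCh38.p14), written 5′ to 3′ on the strand of the gene. The capitals mark GC boxes (GGGCGG on either strand) and a TATA box (TATAAA on either strand). The KIAA1199 window lies at chr15:80779120-80779369 on the plus strand, the TMEM2 window at chr9:71768514-71768763, the HYAL1 window at chr3:50303575-50303824 and the HYAL2 window at chr3:50322746-50322995, the last 3 on the minus strand. The construct uses the promoter of its vector, so the first of these sequences belongs to the cells' own gene.
KIAA1199: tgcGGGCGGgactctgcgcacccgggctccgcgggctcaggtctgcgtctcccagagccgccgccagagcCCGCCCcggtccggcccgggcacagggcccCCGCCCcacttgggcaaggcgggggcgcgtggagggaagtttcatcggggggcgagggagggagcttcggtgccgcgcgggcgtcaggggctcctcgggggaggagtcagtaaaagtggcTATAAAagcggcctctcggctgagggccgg
TMEM2: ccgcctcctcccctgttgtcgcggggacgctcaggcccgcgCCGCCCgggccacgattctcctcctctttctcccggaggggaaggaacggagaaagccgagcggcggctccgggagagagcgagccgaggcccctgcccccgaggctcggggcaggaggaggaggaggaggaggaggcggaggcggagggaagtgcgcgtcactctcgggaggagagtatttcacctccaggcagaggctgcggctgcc
HYAL1: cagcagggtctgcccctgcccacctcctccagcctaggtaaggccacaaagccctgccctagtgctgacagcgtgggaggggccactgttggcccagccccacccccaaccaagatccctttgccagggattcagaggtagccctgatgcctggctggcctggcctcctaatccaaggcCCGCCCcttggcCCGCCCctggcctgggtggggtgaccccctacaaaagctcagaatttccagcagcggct
HYAL2: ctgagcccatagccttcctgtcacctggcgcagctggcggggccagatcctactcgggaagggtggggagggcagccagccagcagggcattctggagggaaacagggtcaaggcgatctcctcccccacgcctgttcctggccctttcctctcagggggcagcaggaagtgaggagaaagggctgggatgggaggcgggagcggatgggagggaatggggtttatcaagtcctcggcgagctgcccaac

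The KIAA1199 window holds 3 GC boxes, at 247, 180 and 150 bases before the start, and a TATA box that begins 30 bases before it. TMEM2 has 1 GC box, at 209 bases before the start, and HYAL1 has 2, at 71 and 59 bases. No GC box or TATA box of these letters is in the HYAL2 window. GC boxes were also in windows of HAS1, HAS3, HYAL3, CD44 and HMMR, none of which was higher in all 3 experiments. Of 35116 RefSeq windows of the same length, 42.6% hold at least 1 GC box and 10.7% a TATA box. The TCF/LEF letters, CAAAG after 2 bases that are each A or T, known from targets of Wnt signaling, were searched on both strands and occur in 12.0% of all windows. They were in none of the windows of the 9 genes with an entry, which are all of the 10 except HAS2. The E-box CACGTG, found in 6.35% of all windows, was in that of HAS3, 66 bases before the start. These matches of letters describe the windows and do not show that a factor binds there.

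The hyaluronidase genes HYAL3, HYAL1 and HYAL2 lie close together on chromosome 3, in this order. HYAL2 (ENSG00000068001_at) encodes the surface enzyme that starts the cutting of long hyaluronan chains. Its log2 level was 7.24, 7.03 and 7.18 in the uninduced arrays and 7.47, 7.42 and 7.41 in the doxycycline arrays. The groups did not overlap, and experiment 2, which had the lowest uninduced level, showed the largest difference. The differences were 0.22, 0.39 and 0.23, and the means were 7.15 ± 0.11 (SD, n = 3) and 7.43 ± 0.029 (SD, n = 3). The log2 fold change was 0.28, with a standard error of 0.071 and a 95% interval from 0.08 to 0.48 (adjusted p = 0.36 from limma), and 86.4% of all probe sets had a smaller absolute change.

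HYAL2 lay just inside the study's limits, with a fold change of 1.22 and an unadjusted p of 0.0168 in limma. Its direction was the same in all 17 other settings, which tests little. The groups did not overlap, so leaving out arrays could not reverse it. HYAL2 passed the study's limits in 10 of these settings. It missed them with the methods' t-test as run here, where its unadjusted p was 0.0357, and that test called 1.07% of all probe sets as raised. The study ran its paired test on the array's transcript clusters, whereas the deposited levels are of Ensembl genes, so this p is not the study's own. It also missed them without experiment 1, 2 or 3, where its log2 fold change was 0.31, 0.23 and 0.31. Without the block it missed them when the uninduced array of experiment 2 or the doxycycline array of experiment 1 or 2 was left out, with log2 fold changes of 0.22, 0.26 and 0.29. Its adjusted p ranged from 0.19 to 0.85 over the 17 settings. With any of the experiments left out, the call was lost.

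HYAL1 (ENSG00000114378_at) encodes the lysosomal hyaluronidase. On the log2 scale it measured 6.31, 6.24 and 6.27 without doxycycline and 6.43, 6.25 and 6.35 with it. The difference was positive in each experiment but only 0.003 in the second, and the groups overlapped. HYAL3 (ENSG00000186792_at) belongs to the same family, and its enzyme activity is less well established. The arrays gave log2 levels of 5.93, 5.88 and 5.82 in uninduced cells and 5.91, 5.99 and 6.04 in induced cells. HYAL3 was lower with doxycycline in experiment 1 and higher in the other two, so the groups overlapped here as well. The log2 fold changes were 0.07 for HYAL1, with a 95% interval from -0.11 to 0.25, and 0.10 for HYAL3, with an interval from -0.11 to 0.32, and neither passed the study's limits. HYAL3 overlaps the gene NAA80 in RefSeq, and which of its probes the 2 genes share was not tested.

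HYAL2 had the largest change of the 3 hyaluronidase genes in these data. Whether it moved more than its neighbors was examined on the differences themselves. The change of HYAL2 exceeded that of HYAL1 in all 3 experiments, by 0.11, 0.39 and 0.14, with a mean of 0.21 and a 95% interval from -0.16 to 0.59. It exceeded that of HYAL3 by 0.24, 0.28 and 0.01, with a mean of 0.18 and an interval from -0.18 to 0.54. Each of these gave p = 0.25 in the exact two-sided sign-flip permutation test, and 0.32 after adjustment over the 9 pairs of genes compared. Since 0.25 is the smallest p that 3 experiments allow, this test could not have called a difference. The intervals include 0, so a response confined to HYAL2 among the 3 genes was not shown.

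**Figure D2:**
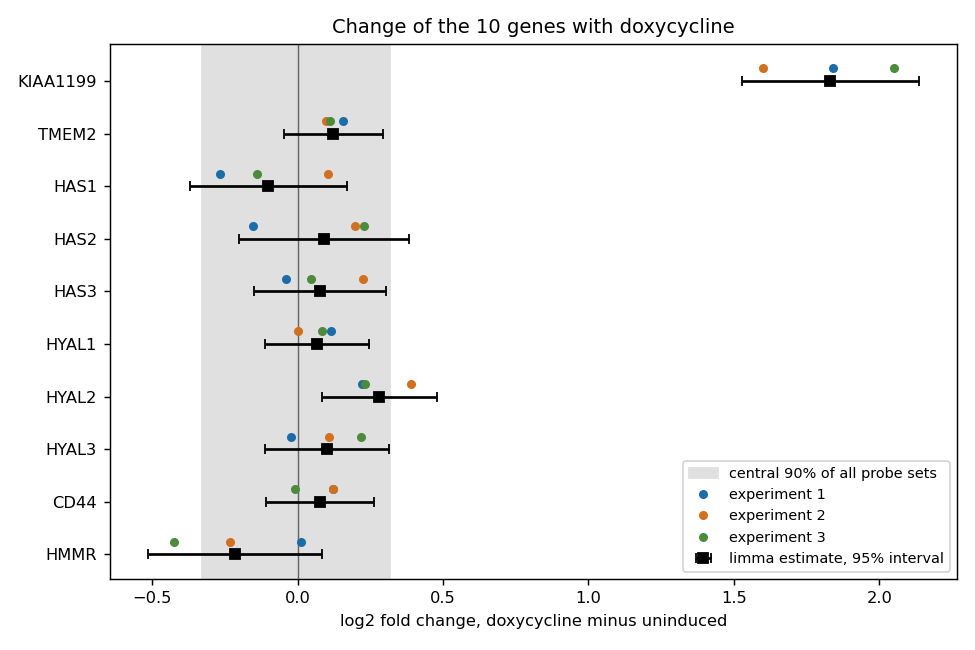
Log2 fold change (x axis, doxycycline minus uninduced) of each gene (y axis). Black squares and bars are limma estimates with 95% intervals, colored points are the 3 experiments, and the grey band runs from the 5th to the 95th percentile of all probe sets, from -0.33 to 0.32. KIAA1199 alone lies outside the band with its whole interval, and HYAL2 is the only other gene whose interval does not include 0.

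None of the 3 synthase genes passed the study's limits, and their estimates differed in sign. HAS2 (ENSG00000170961_at) encodes the synthase most often linked to hyaluronan production in growing and invading cells. Uninduced and induced arrays gave log2 levels of 8.18, 8.49 and 8.35 and of 8.03, 8.69 and 8.57. The uninduced arrays differed among themselves by more than the groups did, and HAS2 was lower with doxycycline in experiment 1 and higher in experiments 2 and 3. Its log2 fold change was 0.09, with a 95% interval from -0.20 to 0.38 (adjusted p = 0.77 from limma).

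HAS3 (ENSG00000103044_at) encodes a synthase of shorter chains. It measured 6.40, 6.38 and 6.45 in uninduced cells and 6.36, 6.61 and 6.50 in induced cells on the log2 scale. The uninduced arrays were close to each other, and only the doxycycline array of experiment 2 stood clearly above them. The log2 fold change was 0.08, with an interval from -0.15 to 0.30. HAS1 (ENSG00000105509_at) encodes the remaining synthase of the family. It measured 5.94, 5.62 and 5.64 without doxycycline and 5.67, 5.72 and 5.51 with it, so that the uninduced array of experiment 1 was the highest of the 6. The log2 fold change of HAS1 was -0.10, with an interval from -0.37 to 0.17. The change of HAS3 exceeded that of HAS1 in each experiment, by 0.23, 0.12 and 0.18, a mean of 0.18 with a 95% interval from 0.04 to 0.31. This interval does not include 0 and is not adjusted for the 9 pairs compared. The exact sign-flip permutation test gave p = 0.25, or 0.32 after adjustment over the 9 pairs, and since 0.25 is the smallest that 3 experiments allow, it could not have called the difference. All 3 synthase genes share part of their span with other genes in RefSeq (SPACA6 for HAS1, the antisense HAS2-AS1 for HAS2, and TANGO6, DERPC and CHTF8 for HAS3), and the share of probes that read these was not tested.

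CD44 and HMMR encode proteins that bind hyaluronan. CD44 (ENSG00000026508_at), the main hyaluronan receptor of the cell surface and a Wnt target in the intestine, had a log2 level of 10.24, 10.26 and 10.38 in the uninduced arrays and 10.36, 10.38 and 10.37 in the doxycycline arrays. It was 0.12 higher with doxycycline in experiments 1 and 2 and 0.01 lower in experiment 3. The 3 induced arrays were nearly equal, and the uninduced array of experiment 3 was level with them. The log2 fold change was 0.08, with a 95% interval from -0.11 to 0.26. Because the deposited values give a single level per gene, the splice variants of CD44 were not separated. CD44 overlaps CD44-AS1 and SNORD164 in RefSeq, and HMMR overlaps HMMR-AS1, and what these add to the levels was not tested.

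HMMR (ENSG00000072571_at), also known as RHAMM, binds hyaluronan outside the cell and microtubules of the mitotic spindle inside it. Its log2 level was 9.74, 9.97 and 9.99 without doxycycline and 9.75, 9.74 and 9.56 with it. The uninduced array of experiment 1 lay within the range of the doxycycline arrays, and the other uninduced arrays lay above all of them. The differences were 0.01, -0.23 and -0.42, and the log2 fold change was -0.22, with a 95% interval from -0.51 to 0.08 (adjusted p = 0.50 from limma). HMMR had the most negative estimate of the 10 genes, and 78.5% of all probe sets had a smaller absolute change. It passed the study's limits in 1 of the 17 other settings, when neither the block nor the first experiment's uninduced array was used, where its log2 fold change was -0.30 and its adjusted p 0.59, against 0.40 to 0.85 over all 17 settings. CD44 and HMMR differed in their change by 0.11, 0.35 and 0.41 in the 3 experiments, with a 95% interval of the mean from -0.11 to 0.70.

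**Figure D3:**
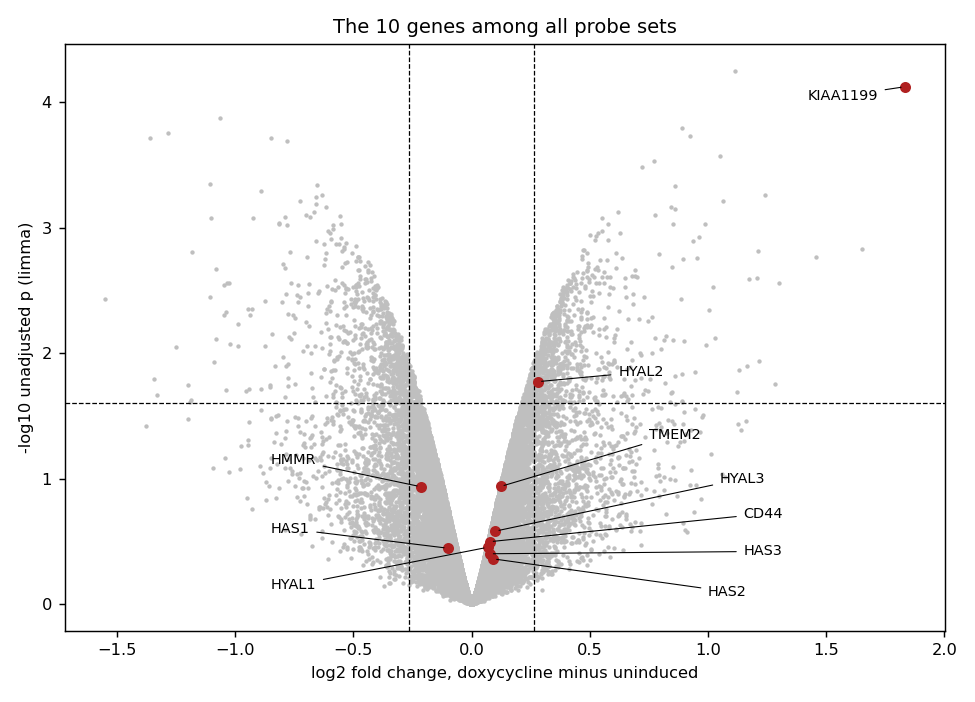
Log2 fold change (x axis) against the -log10 of the unadjusted p from limma (y axis). Grey points are all 26445 probe sets, red points the 10 genes, and dashed lines the study's limits. KIAA1199 has the largest rise of all probe sets, HYAL2 sits close to the crossing of the limits, and the other 8 genes lie among the bulk of the probe sets.

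Set against the whole array, the genes other than KIAA1199 were close to the typical probe set. Their median absolute log2 fold change was 0.10, the same as the 0.10 of all probe sets, and their median signed change was 0.08 against 0.00. KIAA1199 is the gene induced from the construct, so it is left out of the counts that follow. Of the other 9 genes, 3 were higher with doxycycline in all 3 experiments, as were 18.9% of all probe sets. In turn, 0 were lower in all 3, as were 17.6%. The groups did not overlap, with doxycycline higher, for 1 of the 9 (11.1%, against 8.64% of all probe sets), and with doxycycline lower for 0 (7.93%). The 9 genes were not drawn at random and are too few for these shares to set them apart. Among the 8 genes that did not pass the limits, the 95% intervals of the fold change ran from 0.700 at the lowest, for HMMR, to 1.30 at the highest, for HAS2. For all of these genes but HYAL1 the interval leaves room for a change of 1.2-fold, and for none does it reach 1.5-fold in either direction. These intervals are of the array signal. HAS1 and HYAL3, at uninduced log2 levels of 5.73 and 5.88, lay near the array median of 5.66. How far signal follows RNA at such levels was not tested.

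The probe sets nearest to KIAA1199 over the 6 arrays were sought among the 13221 with a level above the median of all probe sets. Likeness was measured as the root mean square difference between log2 levels centred on their own mean. The levels were not scaled and KIAA1199 had the largest rise on the array, so a gene with the same pattern but a smaller change counts as distant, and the values do not show which genes follow KIAA1199. The nearest was ENSG00000208478_at, at a difference of 0.49 on the log2 scale, which was higher with doxycycline by 1.16, 0.68 and 0.97 in the 3 experiments, and the next was ENSG00000213995_at, at 0.53, with differences of 1.24, 0.90 and 0.75. For comparison, the levels of KIAA1199 departed from their own mean by 0.94. The next 2 were at 0.56 each, and none of these identifiers could be given a gene name.

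All 10 genes had an uninduced level above that of at least 51.5% of the probe sets, the lowest being HAS1 and the highest CD44, at 98.5%. Probes differ in brightness for the same amount of RNA, so this says only that the signals were not among the dimmest and ranks no gene against another. Across the series, each array had a median log2 level of 5.66, and the correlation between 2 arrays was never under 0.984. In bulk RNA, a change in some of the cells and a smaller change in all of them cannot be told apart.

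**Figure D4:**
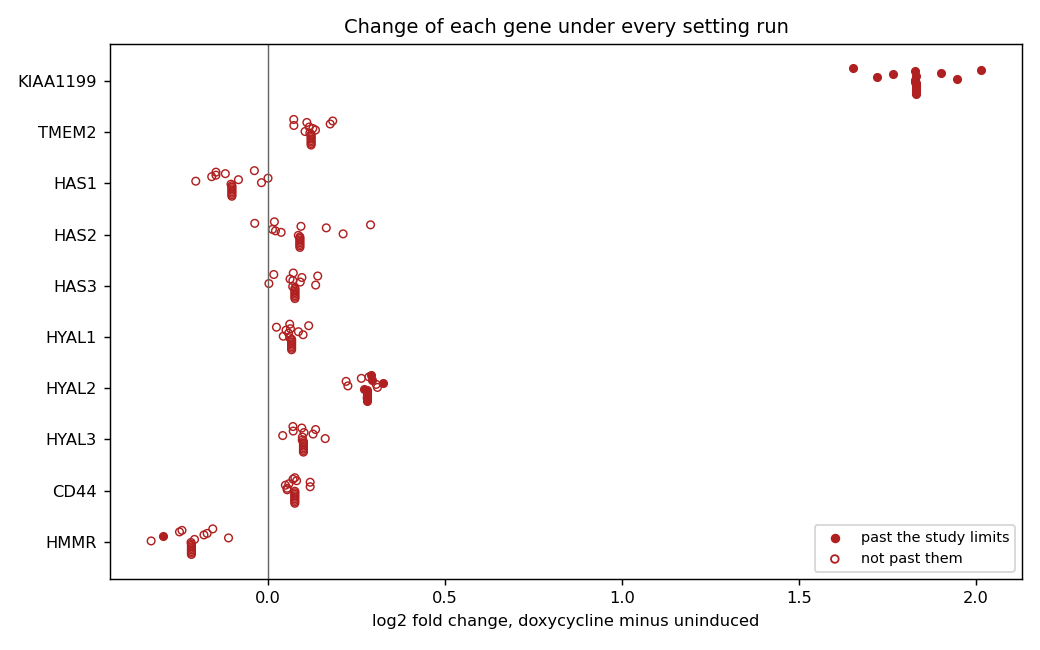
Log2 fold change (x axis) of each gene (y axis) in the reported fit and in each of the 17 other settings. Filled points passed the study's limits and open points did not. KIAA1199 stayed between 1.65 and 2.01 and always passed, HYAL2 stayed between 0.22 and 0.33 and passed in part of the settings, and HAS1 and HAS2 reached the other side of 0 in 1 setting each.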

How the data were processed

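Log2 expression levels were deposited by the authors for 6 samples of total RNA, with 26445 probe sets labelled by Ensembl gene identifiers. The submitters' processing notes name RMA, a method that corrects background, normalizes arrays by quantiles and summarizes probes. Annotation version and genome build are not given in the sources used here. The arrays share a common distribution, with a largest difference of 0.024 at the same rank, and were used without further normalization. Quantile normalization would hide a change common to most genes.

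Each probe set was tested two-sided with limma 3.58.1 in R 4.3.3 (lmFit, eBayes). The experiment was a block in the model, as the study's test was paired. P-values were adjusted by Benjamini-Hochberg over all probe sets. The fits were tested on simulated data. Detection calls were not used, and the 3 arrays per group limit precision. Unless stated otherwise, 95% intervals are from limma. Intervals of differences between genes use the 3 experiments alone.

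The 10 genes, the lists and the tests were chosen with earlier results of these data known. The genes were paired with identifiers by the rule that defined the group. Of the 10, 8 matched RefSeq by symbol and 2 by an older symbol. All 10 are named, and beside them the probe sets nearest to KIAA1199 among those above the median level, with at most 2 unnamed identifiers printed. Lists of 46 further genes of hyaluronan supply, breakdown, binding and uptake and of cell type markers were not analysed here, because 0 of their identifiers could be paired with a symbol in the reference table.

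Alternatives left out the block, used the methods' t-test, changed the variance prior (trend or robust), dropped the dimmest 25% of probe sets, repeated a normalization (quantile or median centring), removed a lowess trend on the level (span 0.3), changed the fold minimum, and left out each experiment or array in turn.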

Additional observations from a re-analysis of the deposited data

How the results depend on the processing

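The count of genes of the group raised past the study's limits was 2, and it was 1 with the methods' t-test and with a fold minimum of 1.5, KIAA1199 in each case. With arrays left out it was between 1 and 2, and the count of lowered genes, otherwise 0, was between 0 and 1, the 1 being HMMR without the uninduced array of experiment 1. Over all probe sets the count past the limits was 1543, against 577 with the methods' t-test and 238 with a fold minimum of 1.5, and between 986 and 1344 with an experiment left out (986 without experiment 3 and 994 without experiment 2). When the block was dropped and a single array left out, it was between 696 and 1361. The uninduced arrays of experiments 1 and 2 gave 993 and 696, and the doxycycline arrays of experiments 1 and 3 gave 997 and 770. These fits have fewer arrays. The methods' t-test has the same fold changes as limma, so only its p differs, and all 577 of its calls were among the 1543. Past an adjusted p of 0.05 the count was 0 in all 17 settings run for it, over all probe sets and over the 10 genes. With arrays left out, 2 genes turned their direction without the block: HAS1 was at 0.001 without the uninduced array of experiment 1, and HAS2 at -0.0365 without the doxycycline array of experiment 2, so neither has a settled direction. The other 8 genes kept theirs in all 17 settings, which tests little. Settings that change only the error, the filter or the normalization leave the estimate the same or nearly so. HAS3, HYAL3, CD44 and HMMR differed in sign between experiments, and HAS3 came as low as 0.0035, so their direction is not settled either. Repeating the quantile normalization or centring the arrays tests little, since the arrays already share a distribution.

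Without the replicate block, 1050 probe sets passed the limits, 862 of them among the 1543, and KIAA1199 and HYAL2 were still the genes of the group that passed. Deviations of arrays with the same experiment number from their group means correlated with an r of 0.039, 0.049 and 0.13, while for differing numbers the values ran from -0.092 to 0.044, so the numbers alone do not show that the arrays are paired. The uninduced array of experiment 1 correlated slightly better with the doxycycline array of experiment 2 (r = 0.044) than with its own (r = 0.039). Each of the other arrays correlated best with the array of its own number. The settings planned for lists of other genes were not run, because their identifiers could not be paired with symbols.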
